A study of Saccharomyces cerevisiae with 14 samples.

Results

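RNA recovered with myc-tagged Puf5 was compared directly with RNA recovered with myc-tagged Ccr4, without dividing either by the mock immunoprecipitation (IP). The comparison rested on 6 of the 14 libraries of the study, the 3 libraries of the Puf5 IP and the 3 of the Ccr4 IP, chosen by their labels, and it asked which mRNAs were recovered more with Puf5 and which more with Ccr4. The Puf5 IP came from budding yeast of the BY4741 background carrying a myc epitope on Puf5, and the Ccr4 IP from BY4741 cells carrying it on Ccr4. The IP from untagged cells (UT IP, 3 libraries) is given beside the results as the background of the method. All cultures were grown in rich medium (YPAD) at 30° without added stress, fixed with 1% formaldehyde and precipitated with an anti-myc antibody on protein A-sepharose. The methods call the replicates biological triplicates. Input RNA was analysed for untagged cells only (2 libraries), so a different level of an mRNA in the tagged cells and a different recovery of it in the IP cannot be told apart in any of the values below.

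Puf5, encoded by *MPT5*, is a member of the Pumilio (PUF) family of RNA-binding proteins, which recognise short elements beginning with UGUA, mostly in the 3′ untranslated region. PUF proteins lower the translation or the stability of bound mRNAs, in part by recruiting the Ccr4-Not complex. Ccr4 is the main cytoplasmic deadenylase of yeast and a subunit of that complex, so it can reach mRNAs through several RNA-binding proteins. *HO*, which encodes the endonuclease of mating type switching, is a classical target of Puf5.

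The 6 libraries held 21625635 to 23482808 counts, of which rRNA took 96.2% to 96.9% with Puf5 and 95.1% to 95.7% with Ccr4. mRNAs together received 598628 to 757613 counts per Puf5 IP library and 762704 to 932141 per Ccr4 IP library. The median mRNA had 48 to 61 counts with Puf5 and 73 to 98 with Ccr4. Libraries of the same IP differed by more than counting error. The chi-square per degree of freedom was 2.82 to 4.58 between Puf5 IP libraries and 5.28 to 11.2 between Ccr4 IP libraries. mRNAs made up 3.07% ± 0.306 of all counts in the Puf5 IP and 3.70% ± 0.333 in the Ccr4 IP, against 2.18% ± 0.00579 in the UT IP (SD, n = 3 each). The libraries did not overlap (two-sided exact permutation p = 0.1, which is the lowest value possible with 3 against 3). With rRNA left out of the denominator the order turned round. mRNAs then made up 87.7% ± 0.0188 in the Puf5 IP and 80.9% ± 1.55 in the Ccr4 IP (SD, n = 3 each, exact permutation test, p = 0.1). The scale on which the IPs are set side by side therefore matters for every mRNA. Values below are scaled to library totals unless stated, and values with TMM factors, which set the bulk of RNAs to no change, stand beside the counts of each gene list. The median log2 ratio of Puf5 IP over Ccr4 IP among 4590 tested mRNAs was -0.56 with library totals and -0.02 with TMM factors, a shift of 0.54.

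At a false discovery rate (FDR) under 1% and a ratio of at least 2-fold, 64 of 4849 tested RNAs were higher in the Puf5 IP (1.32%) and 807 were higher in the Ccr4 IP (16.6%). Among mRNAs these were 63 (1.37%) and 750 (16.3%), and with TMM factors 212 (4.62%) and 127 (2.77%). With TMM factors the split over all RNAs turned to 213 RNAs higher in the Puf5 IP (4.39%) and 133 higher in the Ccr4 IP (2.74%), so that calls higher in the Puf5 IP made up 61.6% of all calls in place of 7.35%. All 64 RNAs called higher in the Puf5 IP with library totals were also called with TMM factors. Of the 807 called higher in the Ccr4 IP, 133 were. The number of mRNAs selective for Puf5 or for Ccr4 is thus set by the scaling. The 64 and 133 RNAs that passed under both are the calls of the stricter scaling for each direction. That is library totals for Puf5 and TMM factors for Ccr4. The mRNAs described first below passed an FDR of 1% in the same direction under both scalings, had a mean of at least 50 counts and had libraries that did not overlap.

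**Figure D1:**
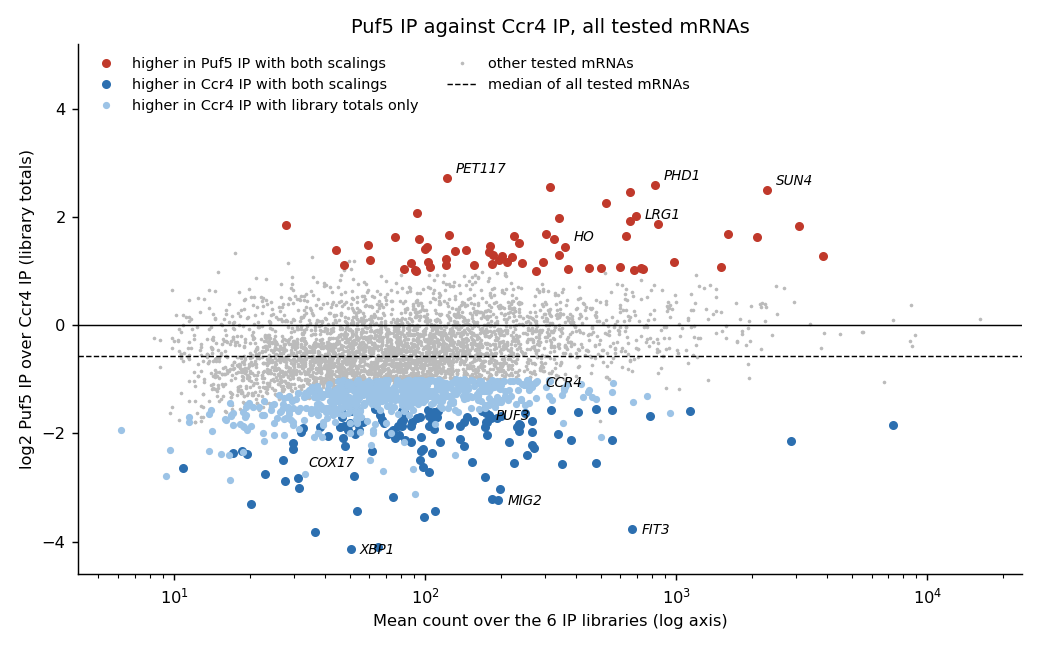
Log2 ratio of Puf5 IP over Ccr4 IP (library totals, vertical axis) against the mean count over the 6 libraries (log axis) for 4590 tested mRNAs. The cloud lies around its median of -0.56, with 63 mRNAs called higher in the Puf5 IP and 127 called higher in the Ccr4 IP under both scalings.

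Of the 12 mRNAs with the highest ratio, 6 encode histones, other chromatin proteins or DNA-binding regulators. *PHD1*, which encodes an activator of pseudohyphal growth, had 65.2, 52.3 and 68.9 CPM (counts per 1000000 counts of the library) in the Puf5 IP and 8.34, 11.5 and 11.1 CPM in the Ccr4 IP, against 4.26, 2.32 and 3.39 CPM in the UT IP. All Puf5 IP libraries were several times above all Ccr4 IP libraries, and the log2 ratio was 2.59 ± 0.19 (standard error, adjusted p = 7.3e-08). *HTZ1*, which encodes the histone variant H2A.Z, had 28.7, 17.1 and 25.4 CPM in the Puf5 IP and 4.15, 4.12 and 3.73 CPM in the Ccr4 IP. In the Ccr4 IP it lay little above the UT IP (2.30, 2.82 and 3.04 CPM), and its log2 ratio was 2.56 ± 0.22 (adjusted p = 4.1e-07). *NHP6A*, for a high-mobility-group protein that binds and bends DNA, had 51.4, 44.2 and 51.2 CPM in the Puf5 IP and 10.5, 9.43 and 6.61 CPM in the Ccr4 IP (log2 ratio 2.46 ± 0.20). *IXR1*, for another high-mobility-group protein, had 38.4, 36.7 and 39.6 CPM in the Puf5 IP, the tightest replicates among these mRNAs after *PET117*, and 9.96, 7.49 and 6.48 CPM in the Ccr4 IP (log2 ratio 2.25 ± 0.19). *BDF2* encodes a bromodomain protein and had 65.6, 46.1 and 63.5 CPM in the Puf5 IP and 15.8, 17.5 and 14.6 CPM in the Ccr4 IP (log2 ratio 1.87 ± 0.18). *HHT1*, a gene for histone H3, reached 298, 119 and 219 CPM in the Puf5 IP and 71.5, 41.4 and 65.6 CPM in the Ccr4 IP (log2 ratio 1.83 ± 0.25, adjusted p = 6.1e-05). *HHT2*, which also encodes histone H3, had a log2 ratio of -0.03 ± 0.21. Whether the counting split reads between these genes was not tested.

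Among the other 6 was *SUN4*, for a cell wall protein that acts in septation. It had 192, 154 and 172 CPM in the Puf5 IP and 31.2, 31.9 and 28.2 CPM in the Ccr4 IP, against 16.2, 18.0 and 20.3 CPM in the UT IP (log2 ratio 2.5 ± 0.15, adjusted p = 8.0e-09). This was the smallest adjusted p among the 12. *LRG1*, for a GTPase-activating protein of Rho1, had 50.8, 43.1 and 52.8 CPM in the Puf5 IP and 14.2, 11.6 and 10.1 CPM in the Ccr4 IP. The UT IP libraries lay at 2.05 to 2.42 CPM, below both IPs, and the IPs did not overlap (log2 ratio 2.03 ± 0.18, adjusted p = 7.3e-07). *RAX2*, for a protein of bud site selection, had 45.4, 31.1 and 60.2 CPM in the Puf5 IP and 12.1, 13.1 and 10.7 CPM in the Ccr4 IP (log2 ratio 1.92 ± 0.22). *TAX4* acts in phosphoinositide regulation and had 24.2, 22.6 and 25.6 CPM in the Puf5 IP and 7.12, 6.94 and 4.23 CPM in the Ccr4 IP (log2 ratio 1.98 ± 0.21).

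The highest ratio of all belonged to *PET117*, which encodes an assembly factor of cytochrome oxidase. It had 9.43, 9.11 and 9.58 CPM in the Puf5 IP and 1.83, 1.29 and 1.03 CPM in the Ccr4 IP, against 0.0910 to 0.220 CPM in the UT IP (log2 ratio 2.71 ± 0.25, adjusted p = 7.3e-07). *SME1*, for a core protein of the spliceosomal snRNPs, had 6.36, 5.06 and 8.39 CPM in the Puf5 IP and 1.83, 1.71 and 1.08 CPM in the Ccr4 IP (log2 ratio 2.07 ± 0.29). *HO* had 29.9, 18.4 and 21.6 CPM in the Puf5 IP and 9.30, 9.20 and 6.88 CPM in the Ccr4 IP, against 2.88, 3.19 and 3.83 CPM in the UT IP. The *HO* libraries of the IPs did not overlap and its log2 ratio was 1.45 ± 0.21 (adjusted p = 9.4e-05), below those of *LRG1* and *SUN4*.

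**Figure D2:**
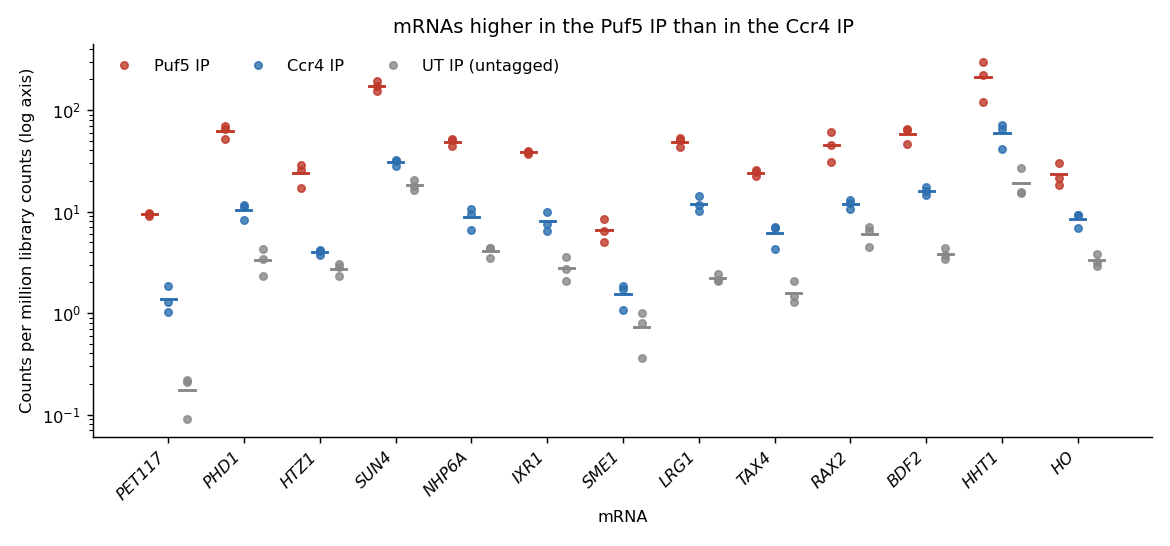
Counts scaled to library totals (CPM, log axis) of the 12 mRNAs with the highest Puf5 IP over Ccr4 IP ratio and of *HO*, 1 point per library and a bar at the mean of 3 libraries, for the Puf5 IP, the Ccr4 IP and the UT IP. In each of the 13 mRNAs all 3 Puf5 IP libraries lie above all 3 Ccr4 IP libraries, and for *PET117* the Puf5 IP lies at 9.11 to 9.58 CPM.

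On the other side, the mRNAs with the lowest ratio sat near the level of the UT IP when Puf5 was precipitated. *XBP1*, for a repressor made in stress and stationary phase, had 0.307, 0.0456 and 0.256 CPM in the Puf5 IP and 5.29, 3.56 and 4.09 CPM in the Ccr4 IP, against 0.459, 0.455 and 0.264 CPM in the UT IP. These Puf5 IP values stand for 7, 1 and 6 counts, so the size of its log2 ratio, -4.13 ± 0.43 (adjusted p = 1.7e-06), is known less well than its direction. *CIS1* had 0.439, 0.319 and 0.0852 CPM in the Puf5 IP and 8.82, 4.72 and 3.06 CPM in the Ccr4 IP, with a log2 ratio of -4.11 ± 0.48. *AMS1*, for the vacuolar α-mannosidase, had 0.351, 1.05 and 0.979 CPM in the Puf5 IP and 13.1, 7.54 and 6.43 CPM in the Ccr4 IP (log2 ratio -3.44 ± 0.36). *BDH2*, for a putative butanediol dehydrogenase, had 0.833, 0.456 and 0.681 CPM in the Puf5 IP and 8.78, 8.51 and 7.33 CPM in the Ccr4 IP (log2 ratio -3.55 ± 0.28). *YOR062C*, a gene without an assigned function in these annotations, had 0.351 to 0.809 CPM in the Puf5 IP and 2.88 to 6.03 CPM in the Ccr4 IP (log2 ratio -2.78 ± 0.39).

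Of these 12 mRNAs, 4 belong to the response to iron. *FIT3*, for a cell wall mannoprotein that retains siderophore-bound iron, was the best counted of them, with 115, 73 and 90 counts in the Puf5 IP and 1491, 1070 and 1167 in the Ccr4 IP. That is 3.33 to 5.04 CPM with Puf5 and 49.5 to 65.1 CPM with Ccr4, and the UT IP overlapped the Puf5 IP at 2.42 to 6.22 CPM (log2 ratio -3.76 ± 0.21, adjusted p = 5.7e-09). *FIT2*, its neighbour and relative, had 2.41, 1.55 and 1.79 CPM in the Puf5 IP and 18.2, 16.6 and 13 CPM in the Ccr4 IP (log2 ratio -3.03 ± 0.23). *TIS11* encodes an RNA-binding protein that promotes the decay of mRNAs when iron is scarce. It had 2.06, 2.19 and 1.45 CPM in the Puf5 IP and 14.1, 13.6 and 13.1 CPM in the Ccr4 IP (log2 ratio -2.81 ± 0.22). *YAP5*, for an activator that responds to high iron, had 1.53, 1.73 and 1.45 CPM in the Puf5 IP and 6.68, 6.15 and 32.0 CPM in the Ccr4 IP. Its log2 ratio was -3.21 ± 0.50, and -2.0 without the third Ccr4 IP library, where it still passed both thresholds.

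The remaining 3 were membrane transporters of lipids and drugs and a regulator of glucose repression. *RSB1*, for a transporter of sphingoid bases, had 0.351, 0.228 and 0.511 CPM in the Puf5 IP and 5.42, 4.16 and 3.64 CPM in the Ccr4 IP (log2 ratio -3.44 ± 0.36). *PDR15*, for an ABC transporter, had 0.702, 0.410 and 0.766 CPM in the Puf5 IP and 7.64, 5.69 and 4.81 CPM in the Ccr4 IP (log2 ratio -3.18 ± 0.32). *MIG2*, for a zinc finger repressor active in glucose, had 1.93, 1.37 and 1.66 CPM in the Puf5 IP and 19.1, 15.3 and 13.3 CPM in the Ccr4 IP (log2 ratio -3.23 ± 0.23, adjusted p = 7.3e-08). For all 12, every Ccr4 IP library lay above every Puf5 IP library and above every UT IP library.

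*COX17* and *ROM2*, which the study names, were called higher in the Ccr4 IP with library totals and not with TMM factors. With mRNA totals, with totals without rRNA and with DESeq2 and its size factors, *COX17* kept its call and *ROM2* lost it. *COX17*, for a copper chaperone of mitochondria, had 0.921, 0.638 and 0.766 CPM in the Puf5 IP and 9.35, 2.17 and 2.16 CPM in the Ccr4 IP. Its log2 ratio was -2.49 ± 0.50 (adjusted p = 0.0010), -1.43 without the first Ccr4 IP library, and -1.90 with TMM factors (adjusted p = 0.015). *ROM2*, for an exchange factor that activates Rho1, had 7.67, 6.06 and 7.62 CPM in the Puf5 IP and 18.6, 15 and 12.4 CPM in the Ccr4 IP. Its log2 ratio was -1.10 ± 0.20 with library totals, -0.94 without the first Ccr4 IP library and -0.55 with TMM factors (adjusted p = 0.011).

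**Figure D3:**
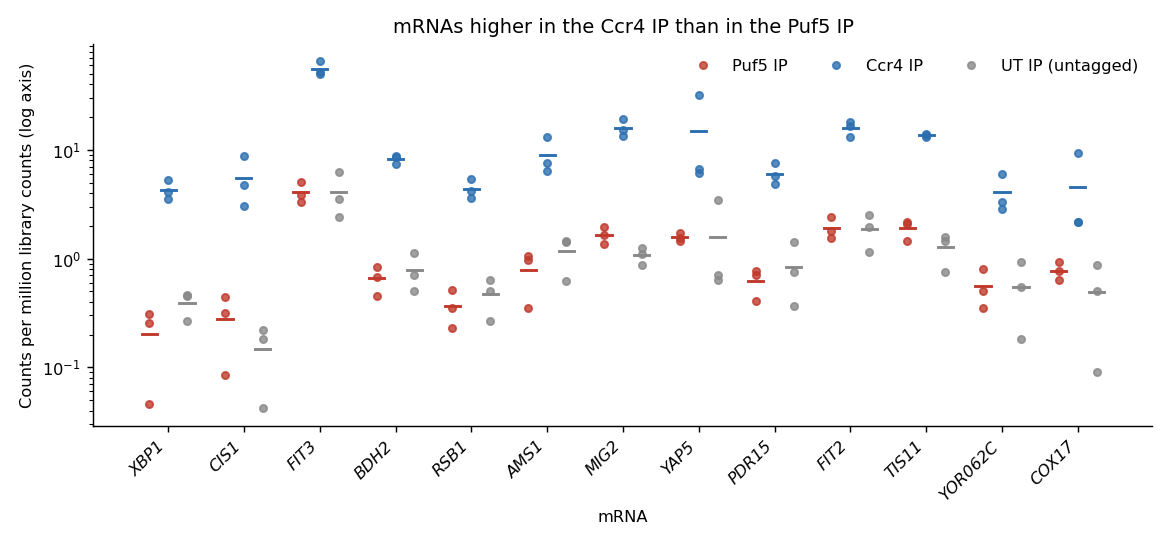
Counts scaled to library totals (CPM, log axis) of the 12 mRNAs with the lowest Puf5 IP over Ccr4 IP ratio and of *COX17*, 1 point per library and a bar at the mean of 3 libraries, for the Puf5 IP, the Ccr4 IP and the UT IP. In each of these mRNAs the Ccr4 IP lies above both other groups, and the Puf5 IP lies near the UT IP, as for *FIT3* at 3.33 to 5.04 CPM with Puf5 against 2.42 to 6.22 CPM without a tag.

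Against the UT IP, the 63 mRNAs higher in the Puf5 IP had a median log2 ratio of 2.67 in the Puf5 IP and 1.11 in the Ccr4 IP. The 750 mRNAs higher in the Ccr4 IP had a median of 0.46 in the Puf5 IP and 1.85 in the Ccr4 IP. Over all 4590 tested mRNAs the medians were 0.61 and 1.24. At an FDR under 1%, 61 of the 63 were above the UT IP in the Puf5 IP, where 24.8% of all tested mRNAs were, and 45 of the 63 in the Ccr4 IP, where 70.8% of all tested mRNAs were. Of the 750, 90 were above the UT IP in the Puf5 IP and 734 in the Ccr4 IP. These counts describe the calls, since the same IP libraries chose the mRNAs. The share of the 63 that was above the UT IP in the Ccr4 IP, 71.4%, was close to that of all tested mRNAs.

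The tagged genes' own mRNAs carry the tag and so differ between the strains. *MPT5* had 1.58, 0.592 and 1.32 CPM in the Puf5 IP and 0.568, 1.02 and 0.809 CPM in the Ccr4 IP, which overlap (log2 ratio 0.53 ± 0.43, adjusted p = 0.30). *CCR4* had 7.81, 7.84 and 8.69 CPM in the Puf5 IP and 14.5, 15.2 and 20.5 CPM in the Ccr4 IP. Its log2 ratio was -1.04 ± 0.19 with library totals (adjusted p = 0.00072), -0.87 without the third Ccr4 IP library and -0.52 with TMM factors (adjusted p = 0.079).

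Genes were then read by list, each beside the share called among all mRNAs (1.37% higher in the Puf5 IP, 16.3% higher in the Ccr4 IP) and the median of all mRNAs (-0.56). Of 10 histone genes, 5 were higher in the Puf5 IP and 0 were higher in the Ccr4 IP, with a list median of 0.85. With TMM factors these were 6 and 0. Besides *HTZ1* and *HHT1* these were *HHO1* (log2 ratio 1.11), *HTB2* (1.07) and *HTA1* (1.04), for the linker histone, H2B and H2A. *HTB2* had 45.1, 25.0 and 36.6 CPM in the Puf5 IP and 19.9, 13.5 and 17.2 CPM in the Ccr4 IP. *HTA1* and *HTB2* were no longer called without the first Puf5 IP library (log2 ratios 0.82 and 0.87) or without the second Ccr4 IP library (0.96 and 0.94), and *HTA1* also without the third Ccr4 IP library (0.99). Of the 10 histone genes, 3 had a log2 ratio below 0. The lowest was *HHF1*, for histone H4, at -1.005 ± 0.38 (adjusted p = 0.040). It had 1010, 661 and 1044 counts in the Puf5 IP and 981, 790 and 3545 in the Ccr4 IP, where the third library stood far above the rest. Similar copies among histone genes could share reads, which leaves the values of single genes uncertain.

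A list of chromatin architectural and bromodomain proteins, put together after the values were seen, had 9 tested members, of which 7 were higher in the Puf5 IP and 0 in the Ccr4 IP under both scalings. Their list median was 1.68. Besides *NHP6A*, *IXR1* and *BDF2* it held *BDF1*, for the second bromodomain protein of the family, with 121, 88.1 and 115 CPM in the Puf5 IP and 42.2, 31.1 and 27.0 CPM in the Ccr4 IP (log2 ratio 1.69 ± 0.18). It also held *HMO1*, for a high-mobility-group protein of ribosomal genes, with 22.4, 16.7 and 22.4 CPM in the Puf5 IP and 6.46, 5.64 and 6.92 CPM in the Ccr4 IP (log2 ratio 1.68 ± 0.19).

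The calls in the wider list of chromatin remodellers and histone modifiers turned with the scaling. Of 99 tested, 5 were higher in the Puf5 IP and 14 in the Ccr4 IP with library totals, and 14 and 2 with TMM factors. The list median of -0.56 was that of all mRNAs. *BDF1* and *IES3*, for a subunit of the INO80 remodeller, led on the Puf5 side. *IES3* had 11.1, 10.8 and 13.5 CPM in the Puf5 IP and 4.93, 3.14 and 4.63 CPM in the Ccr4 IP (log2 ratio 1.47 ± 0.22). *SWD1*, for a subunit of the COMPASS methyltransferase, and *SGF73*, for a subunit of SAGA, led on the Ccr4 side with log2 ratios of -1.87 ± 0.31 and -1.79 ± 0.28. Both also passed with TMM factors, at -1.36 and -1.24. The other 12 called higher in the Ccr4 IP did not pass with TMM factors at 2-fold.

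In the Rho1 and cell wall integrity list, called regulators of Rho1 that oppose each other fell on opposite sides. Of 20 tested, *LRG1* and *ZEO1* were higher in the Puf5 IP, and *SDP1*, *MTL1*, *ROM1* and *ROM2* were higher in the Ccr4 IP. *LRG1* switches Rho1 off and *ROM1* and *ROM2* encode factors that switch it on. Other regulators of Rho1 in the list did not follow this split. *TUS1*, for an exchange factor, had a log2 ratio of 0.26, and *BEM2*, for a GTPase-activating protein, had -0.42. Neither was called under either scaling. *ZEO1*, for a membrane protein that dampens the pathway, had 72.5, 45.1 and 62.3 CPM in the Puf5 IP and 28.6, 30.3 and 21.4 CPM in the Ccr4 IP (log2 ratio 1.16 ± 0.19). *MTL1*, for a cell wall sensor, had 0.526, 1.14 and 1.06 CPM in the Puf5 IP and 3.62, 3.28 and 4.45 CPM in the Ccr4 IP (log2 ratio -2.01 ± 0.33). *SDP1*, for a phosphatase of the pathway's MAP kinase, had a log2 ratio of -2.64 ± 0.59, from 4 counts or fewer in each Puf5 IP library. *SDP1*, *MTL1* and *ROM1* kept their call with TMM factors, while *ROM2* did not. *RHO1* itself had 14.9, 13.9 and 16 CPM in the Puf5 IP and 15.1, 13.3 and 9.94 CPM in the Ccr4 IP (log2 ratio 0.22 ± 0.19, adjusted p = 0.35).

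In the list of mating and filamentous growth, 2 of 19 tested mRNAs were higher in the Puf5 IP and 3 in the Ccr4 IP, and 4 and 0 with TMM factors. *STE12*, for the transcription factor of the mating and filamentation pathways, joined *PHD1*, with 14.8, 11.2 and 12.8 CPM in the Puf5 IP and 5.33, 5.50 and 6.43 CPM in the Ccr4 IP (log2 ratio 1.16 ± 0.19). The 3 higher in the Ccr4 IP, led by *MSS11* (log2 ratio -1.85) and *STE11* (-1.28), were not called with TMM factors. The calls of *MSS11* and *STE11* were also lost when single libraries were left out. *MSS11* had an adjusted p of 0.017 without the second Puf5 IP library, and *STE11* had an adjusted p of 0.033 in the same fit. Among 7 genes of *HO* and its regulators, *ASH1*, for the daughter-cell repressor of *HO*, had 6.36, 5.19 and 4.98 CPM in the Puf5 IP and 17.7, 11.8 and 9.26 CPM in the Ccr4 IP. Its log2 ratio of -1.22 ± 0.23 is opposite in sign to that of *HO*, and it was -0.93 without the first Ccr4 IP library and -0.66 with TMM factors (adjusted p = 0.018).

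Of 48 mRNAs for the spindle pole body and kinetochore, 2 were higher in the Puf5 IP and 12 in the Ccr4 IP with library totals. The split turned to 8 and 2 with TMM factors. *DSN1*, of the MIND complex of the kinetochore, had 16.1, 14.7 and 15.7 CPM in the Puf5 IP and 7.73, 4.72 and 3.64 CPM in the Ccr4 IP (log2 ratio 1.52 ± 0.24). *ASK1*, of the DASH complex, had 1.49, 1.14 and 1.41 CPM in the Puf5 IP and 6.12, 4.53 and 3.33 CPM in the Ccr4 IP (log2 ratio -1.76 ± 0.30). *DAD1*, also of the DASH complex, had a log2 ratio of 1.62 ± 0.40, but 0.91 without the first Puf5 IP library, and it was not called without the second or the third Ccr4 IP library either (adjusted p = 0.013 and 0.012).

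Among 23 cyclins and regulators of cyclin-dependent kinases, 0 were higher in the Puf5 IP and 7 were higher in the Ccr4 IP, with a list median of -0.89. With TMM factors these were 0 and 2, and the list median was -0.35. *CLN3*, for the G1 cyclin that starts the cell cycle, had 5.09, 4.78 and 6.22 CPM in the Puf5 IP and 18.0, 15.4 and 22.1 CPM in the Ccr4 IP (log2 ratio -1.78 ± 0.20, and -1.25 with TMM factors). *PCL5*, which marks the transcription factor Gcn4 for destruction, had 11.6, 6.06 and 8.18 CPM in the Puf5 IP and 14.6, 16.1 and 78.3 CPM in the Ccr4 IP. Its log2 ratio was -2.07, and -0.83 without the third Ccr4 IP library, which stood far above the rest. With TMM factors it was not called (adjusted p = 0.058). It was not called without the second or the third Puf5 IP library either (adjusted p = 0.020 and 0.010).

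The nitrogen and glucose lists had most of their calls on the Ccr4 side. Of 17 nitrogen response mRNAs, 0 were higher in the Puf5 IP and 10 in the Ccr4 IP (list median -1.12, and -0.58 with TMM factors, where 3 were called). *PUT1*, for proline oxidase, had 1.14, 0.911 and 1.53 CPM in the Puf5 IP and 8.47, 6.10 and 8.18 CPM in the Ccr4 IP (log2 ratio -2.62 ± 0.27). *GDH2*, for a glutamate dehydrogenase, had a log2 ratio of -2.87 ± 0.50, and -3.68 without the first Puf5 IP library. It rested on 12, 3 and 3 counts in the Puf5 IP, against 61, 54 and 33 in the Ccr4 IP, so its size is known less well than its direction. Of 20 mRNAs for hexose transport and glucose signalling, *MTH1* was higher in the Puf5 IP and 9 were higher in the Ccr4 IP, and 1 and 3 with TMM factors. *MTH1* and *STD1* encode paralogous regulators of the glucose sensing pathway and were called in opposite directions. *MTH1* had 3.68, 4.42 and 3.58 CPM in the Puf5 IP and 2.18, 0.694 and 1.21 CPM in the Ccr4 IP (log2 ratio 1.48 ± 0.34), but it was not called without the second Puf5 IP or the second Ccr4 IP library (adjusted p = 0.016 and 0.014). *STD1* had 2.32, 2.19 and 2.47 CPM in the Puf5 IP and 8.73, 7.31 and 6.75 CPM in the Ccr4 IP (log2 ratio -1.69 ± 0.23). *HXT1*, for a low-affinity glucose transporter, had 4.21, 5.88 and 3.83 CPM in the Puf5 IP and 17.1, 15.9 and 17.4 CPM in the Ccr4 IP (log2 ratio -1.85 ± 0.21).

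Lists of iron, drug resistance and storage carbohydrate genes were put together after the values were seen, so their counts describe what prompted them. Of 20 mRNAs for iron uptake and its control, 17 were higher in the Ccr4 IP with library totals and 12 with TMM factors, and 0 were higher in the Puf5 IP under either. *FET3*, for the ferroxidase of high-affinity uptake, had 28.1, 22.2 and 25.6 CPM in the Puf5 IP and 75.6, 79.5 and 72.6 CPM in the Ccr4 IP (log2 ratio -1.58 ± 0.16). *AFT1*, for the activator of the iron regulon, had 5.44, 5.01 and 5.83 CPM in the Puf5 IP and 18.7, 18.4 and 13.4 CPM in the Ccr4 IP (log2 ratio -1.62 ± 0.20). Of 16 multidrug resistance mRNAs, 8 were higher in the Ccr4 IP, and 5 with TMM factors. They included *PDR5*, for the main drug efflux pump, with 153, 133 and 142 CPM in the Puf5 IP and 555, 503 and 470 CPM in the Ccr4 IP (log2 ratio -1.83 ± 0.12). Of 18 mRNAs for trehalose and glycogen, 12 were higher in the Ccr4 IP, and 6 with TMM factors. *TSL1*, of the trehalose synthase complex, had 4.39, 3.51 and 4.47 CPM in the Puf5 IP and 30.1, 15.6 and 14.5 CPM in the Ccr4 IP (log2 ratio -2.27 ± 0.26). The first Ccr4 IP library was the highest for this list, whose median was -1.55 with it and -1.17 without it.

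Lists of mitochondrial proteins differed in their counts. Of 69 mRNAs for mitochondrial ribosomal proteins, all had a log2 ratio below 0 with library totals, as had 3749 of all 4590 tested mRNAs. With library totals 21 were higher in the Ccr4 IP (30.4%) and 0 in the Puf5 IP, with a list median of -0.88. With TMM factors the list median was -0.34 and 0 members passed an FDR of 1% in either direction, where 9.91% of all mRNAs did so with a higher and 4.05% with a lower value in the Puf5 IP. *PET123* (log2 ratio -1.81 ± 0.36) and *MRP20* (-1.78 ± 0.35) were the furthest. *MRP20* had 0.614, 1.32 and 0.639 CPM in the Puf5 IP and 3.45, 3.10 and 2.61 CPM in the Ccr4 IP. Of 19 mRNAs for cytochrome oxidase assembly, *PET117* was higher in the Puf5 IP and 7 were higher in the Ccr4 IP, led by *COX17* and *COA6* (log2 ratio -2.22 ± 0.47). None of these 7 was called with TMM factors. Of 29 mRNAs for the respiratory chain and ATP synthase, *QCR6* alone was called with library totals, higher in the Ccr4 IP and at the edge of the 2-fold cutoff. With TMM factors *QCR6* was not called, and *COX13* (log2 ratio 1.36 on that scale) and *CYC1* (1.29) were called higher in the Puf5 IP, so the direction of the list's calls turned. *QCR6* was also not called in 4 of the 6 fits that left out a library, with an adjusted p of 0.018 without the second Ccr4 IP library.

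mRNAs for cytosolic ribosomal proteins lay above the median of all mRNAs. Of 117 tested, 2 were higher in the Puf5 IP and 1 in the Ccr4 IP, with a list median of 0.24, and 0.79 with TMM factors, where 17 were higher in the Puf5 IP and 0 in the Ccr4 IP. Without the 2-fold cutoff, 50 passed with a higher value in the Puf5 IP on that scale. *RPL28* had 240, 228 and 254 CPM in the Puf5 IP and 107, 95.3 and 94.2 CPM in the Ccr4 IP, against 80.3, 95.4 and 86.6 CPM in the UT IP (log2 ratio 1.28 ± 0.13). Its Ccr4 IP and UT IP libraries overlapped. Many of these genes have a near-identical paralogue. Of 40 mRNAs for the small subunit processome, *NOP1* and *SNU13* were higher in the Puf5 IP (log2 ratios 1.02 and 1.06) and 0 were higher in the Ccr4 IP, and 3 and 0 with TMM factors. *NOP1* was not called without the third Puf5 IP library (0.78) or the second Ccr4 IP library (0.99).

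The other lists had few calls. Of 25 mRNAs for mitochondrial protein import, 0 were higher in the Puf5 IP and 2 in the Ccr4 IP, of 18 for glycolysis and ethanol formation 0 and 2, of 10 for ribonucleotide reductase and its regulators 0 and 1, and of 18 for the phosphate response 1 and 2. With TMM factors the first 3 of these lists had 0 calls in either direction, and the phosphate list had 2 higher in the Puf5 IP and 0 in the Ccr4 IP. Of 33 cell wall proteins, a list put together after the values were seen, 2 were higher in the Puf5 IP and 4 in the Ccr4 IP, and 4 and 3 with TMM factors.

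**Figure D4:**
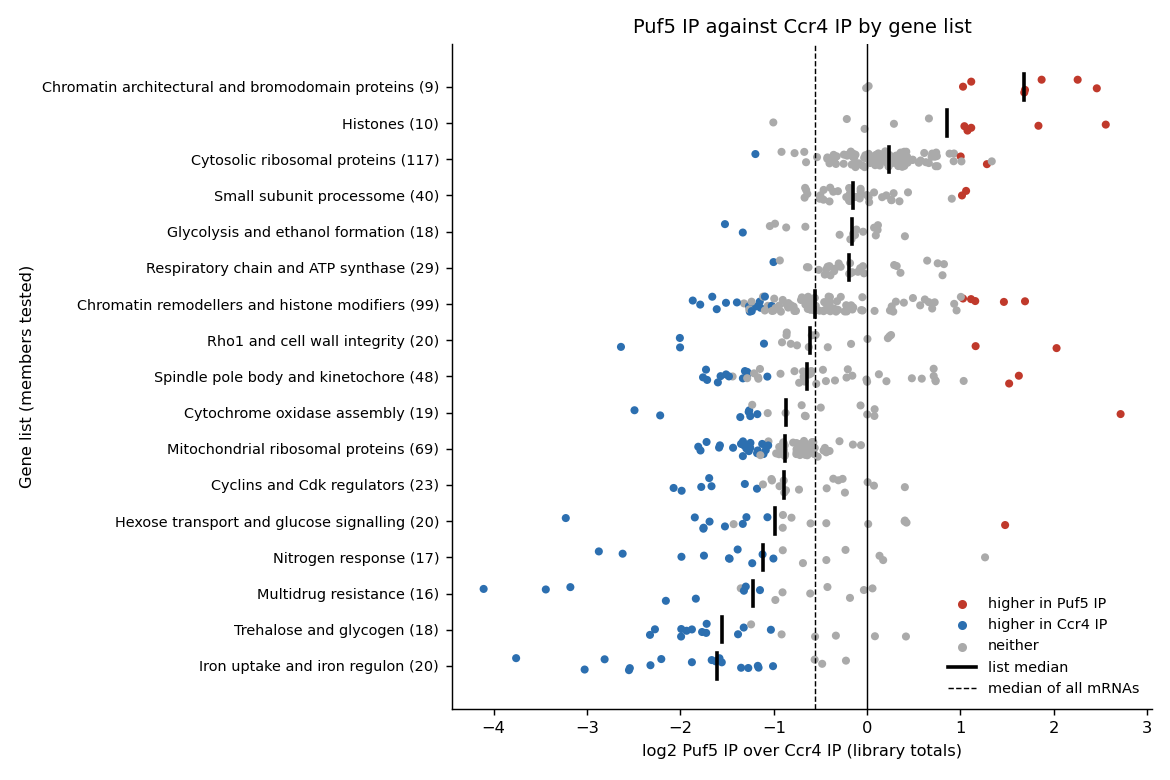
Log2 ratio of Puf5 IP over Ccr4 IP (library totals, horizontal axis) of each tested member of 17 gene lists (rows, number tested in parentheses). Black ticks mark list medians and the dashed line the median of all mRNAs. The medians run from 1.68 for chromatin architectural and bromodomain proteins to -1.60 for iron uptake. These lists and those of multidrug resistance and of trehalose and glycogen were put together after the values were seen. Among the lists fixed first, the medians run from 0.85 for histones to -1.12 for the nitrogen response.

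With library totals, calls among mRNAs of the decay machinery itself lay on the Ccr4 side. Of 6 mRNAs of the Puf family, *PUF3* and *PUF2* were higher in the Ccr4 IP. *PUF3* had 4.96, 2.96 and 3.58 CPM in the Puf5 IP and 11.6, 12.6 and 11.4 CPM in the Ccr4 IP (log2 ratio -1.62 ± 0.22), and it passed with TMM factors as well (-1.09). *PUF2* had a log2 ratio of -1.20 ± 0.24, -0.97 without the second Puf5 IP library, and was not called with TMM factors. *PUF4* had 23.1, 20.5 and 21.3 CPM in the Puf5 IP and 18.3, 18.0 and 15.1 CPM in the Ccr4 IP, which do not overlap, at a log2 ratio of 0.34 ± 0.17 (adjusted p = 0.12). *CCR4*, the gene tagged in the strain of the Ccr4 IP, was the single call among 8 mRNAs of the Ccr4-Not complex, and 0 were called with TMM factors. Of 21 decapping, P-body and other decay factors, 3 were higher in the Ccr4 IP, *EDC2*, *DCP2* and *UPF3*, and 0 in the Puf5 IP. With TMM factors *EDC2* alone was called higher in the Ccr4 IP, and *DHH1* (log2 ratio 1.16 on that scale) and *LSM4* (1.14) were called higher in the Puf5 IP. *UPF3* was not called in 5 of the 6 fits that left out a library (adjusted p = 0.039 without the second Ccr4 IP library). *DCP2*, for the decapping enzyme, had 7.94, 5.97 and 6.98 CPM in the Puf5 IP and 20.4, 17.9 and 15.1 CPM in the Ccr4 IP (log2 ratio -1.35 ± 0.20, and -0.80 with TMM factors, under the 2-fold cutoff).

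RNAs other than mRNAs that were called lay on the Ccr4 side, except *ARS1324*, a replication origin with 137, 30 and 43 counts in the Puf5 IP and 27, 5 and 21 in the Ccr4 IP (log2 ratio 1.90 ± 0.54). All 5 tested snRNAs were higher in the Ccr4 IP, with a median log2 ratio of -1.64, and 3 of them with TMM factors. *LSR1*, the U2 snRNA, had 5356, 3353 and 5178 counts in the Puf5 IP and 11745, 12627 and 12124 counts in the Ccr4 IP, against 9217, 7464 and 8017 counts in the UT IP. Its Puf5 IP libraries were therefore below the UT IP and its Ccr4 IP libraries above it. Its log2 ratio was -1.43, and -0.91 with TMM factors. Of 64 snoRNAs, 28 were higher in the Ccr4 IP (median log2 ratio -0.94) and 1 with TMM factors. Together, snoRNAs took 0.086% ± 0.015 of counts in the Puf5 IP and 0.183% ± 0.018 in the Ccr4 IP (SD, n = 3 each). The UT IP, at 0.192% ± 0.037, overlapped the Ccr4 IP, and the Puf5 IP lay below both. *SCR1*, the RNA of the signal recognition particle, had a log2 ratio of -1.30 ± 0.094 and -0.76 with TMM factors. Of 61 Ty elements 15 were higher in the Ccr4 IP, and of 99 tRNAs 6 were. With TMM factors these were 1 and 0. Ty elements and tRNAs have near-identical copies, among which reads cannot be placed with certainty.

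The ratio moved with abundance. When tested mRNAs were put into 5 equal bins by their CPM in the input of untagged cells, the median log2 ratio was -0.81 in the lowest bin and -0.21 in the highest, and -0.29 and 0.33 with TMM factors. With library totals, 6, 12, 9, 15 and 21 mRNAs were higher in the Puf5 IP from the lowest bin to the highest. Those higher in the Ccr4 IP were 148, 202, 186, 147 and 67, so the number of calls did not change steadily from bin to bin.

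Reads were also counted in 3 segments of equal length along each RNA, which allowed the ratio at the 3′ end to be compared with that at the 5′ end of the same mRNA. The 3′ segments held 40.4% ± 2.88 of mRNA counts in the Puf5 IP and 38.5% ± 1.26 in the Ccr4 IP, against 29.8% ± 0.838 in the UT IP (SD, n = 3 each). The IPs overlapped (two-sided exact permutation p = 0.4). The 5′ segment separated the libraries of the IPs, at 27.3% ± 1.28 in the Puf5 IP and 30.1% ± 0.704 in the Ccr4 IP (two-sided exact permutation p = 0.1). For single mRNAs the interaction of segment and IP was tested with the library as a block. Of 4242 mRNAs, 9 had a higher Puf5 over Ccr4 ratio at the 3′ end (0.212%) and 2 at the 5′ end (0.0471%) at an FDR under 5%.

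*DHH1*, which encodes a decapping activator of the same decay pathway, had the largest difference towards the 3′ end. Its 3′ segment held 559, 352 and 588 counts in the Puf5 IP and 189, 127 and 157 counts in the Ccr4 IP. Its 5′ segment held 251, 108 and 119 counts in the Puf5 IP and 317, 194 and 255 counts in the Ccr4 IP. The Puf5 IP was above the Ccr4 IP in every library at the 3′ end, while the libraries overlapped at the 5′ end, with a log2 difference between the segments of 2.39 ± 0.29 (adjusted p = 0.00096). Over its whole length *DHH1* had a log2 ratio of 0.62 and was not called with library totals, while it was called with TMM factors, at 1.16. *REB1*, for a general regulatory transcription factor, followed at 2.2 ± 0.40, and *SFH1*, of the RSC remodeller, at 2.03 ± 0.39. Both lost their call in most fits that left out a library.

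*SUN4*, *RAX2* and *IXR1*, which were among the 12 mRNAs highest in the Puf5 IP over their whole length, were also among the 9. *SUN4* had 2975, 1920 and 2509 counts in its 3′ segment and 569, 516 and 652 in its 5′ segment in the Puf5 IP, and 259, 253 and 210 against 231, 240 and 226 in the Ccr4 IP. The 3′ share of *SUN4* counts was thus 56.9% to 68.1% with Puf5 and 33.5% to 36.6% with Ccr4, and the UT IP overlapped the Ccr4 IP at 22.7% to 37.2% (log2 difference 2.03 ± 0.21, adjusted p = 0.00021). For *IXR1* these shares were 69.0%, 67.0% and 63.5% with Puf5 and 49.1%, 50% and 47.2% with Ccr4, and for *RAX2* 60.6%, 56.3% and 68.7% with Puf5 and 44.2%, 41.5% and 37.4% with Ccr4. Without a library, *RAX2* passed in 3 of 6 fits and *IXR1* in 1. Among the 12 mRNAs highest in the Puf5 IP, 5 had a 3′ share that was higher in every Puf5 IP library than in any Ccr4 IP library, and 0 the reverse. Of the 3083 mRNAs that averaged 50 counts or more, 12.6% had the first pattern and 4.22% the second. *HO* had 58.0%, 44.2% and 55.1% of its counts at the 3′ end with Puf5 and 42.2%, 39.7% and 38.6% with Ccr4, with a log2 difference of 1.43 ± 0.33 that did not pass (adjusted p = 0.087).

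*KAR9*, for a protein that positions the spindle, and *FIT2* went the other way. *KAR9* had 526, 321 and 500 counts in its 5′ segment and 42, 26 and 34 in its 3′ segment in the Puf5 IP, and 172, 108 and 93 against 128, 87 and 84 in the Ccr4 IP. Its 5′ share was 71.2% to 75.7% with Puf5, 37.2% to 49.1% with Ccr4 and 17.3% to 36.1% without a tag (log2 difference -3.38 ± 0.27, adjusted p = 8.8e-06). *KAR9* was called higher in the Puf5 IP over its whole length (log2 ratio 1.05). Its middle segment held 127, 96 and 168 counts in the Puf5 IP and 50, 95 and 48 in the Ccr4 IP. The excess in the Puf5 IP thus lay mostly in the 5′ segment and less in the middle one, while the 3′ segment was lower in the Puf5 IP than in the Ccr4 IP. For *FIT2* the difference of -3.76 ± 0.60 rested on 9, 7 and 12 counts in the 5′ segment in the Puf5 IP and 2, 13 and 6 in the Ccr4 IP, and it passed in 4 of 6 fits that left out a library. Reads of a transcript that overlaps an end of these genes would be counted in the same segment, and their part in these values was not tested.

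**Figure D5:**
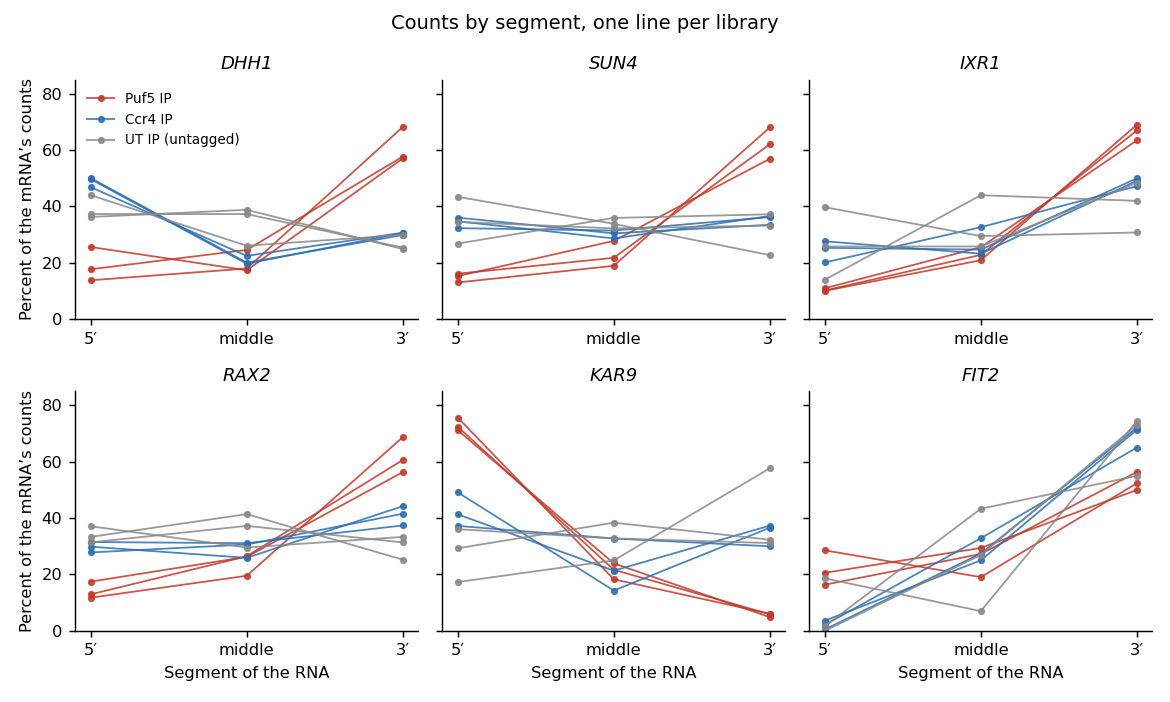
Percent of an mRNA's counts in its 5′, middle and 3′ segment, 1 line per library of the Puf5 IP, the Ccr4 IP and the UT IP, for 6 of the 11 mRNAs that passed the test. The 3′ share of *SUN4* is 56.9% to 68.1% with Puf5 and 33.5% to 36.6% with Ccr4, and the 5′ share of *KAR9* is 71.2% to 75.7% with Puf5 and 37.2% to 49.1% with Ccr4.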

How the data were processed

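RNA-seq libraries of IPs from tagged and untagged yeast were analysed. Per the study's methods, SOLiD reads were mapped with SHRiMP to the sg7 yeast genome, and the authors deposited raw, unnormalized read counts for each RNA, taken from one transcript end to the other, and for each length segment. Deposited tables of log2 enrichment over the UT IP hold the authors' own comparisons. Only their RNA type column was used. Symbols came from RefSeq for 4791 of 4792 mRNAs.

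IPs were compared by edgeR's quasi-likelihood test (edgeR 4.0.16, R 4.3.3), with library totals as library sizes (no TMM factors), edgeR's default filter, a prior count of 1 and Benjamini-Hochberg adjustment over all 4849 RNAs. Segment tests needed a mean of at least 5 counts in both segments. Both tests were first tested on simulated data.

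Named mRNAs were the 12 per direction with the largest ratio under the rule in the text, the tagged genes, mRNAs the study names, and the called extremes of each list. Others were named after their values were seen. Members and lists were chosen with earlier results of these data known. Of 27 lists, 5 were added after the values were seen. Alternatives covered scaling, DESeq2 1.42.0, filters, cutoffs, a block and left-out libraries. Sequences, motifs and coordinates were not analysed here. Values after ± are standard errors of the fit over 6 libraries for log2 ratios, and SDs over 3 libraries for shares.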

Additional observations from a re-analysis of the deposited data

Results flagged for a closer look

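The ratio of Puf5 IP over Ccr4 IP differed between the ends of 11 mRNAs by a test of the difference itself. As a log2 difference between the 3′ and the 5′ segment it was 2.39 for *DHH1*, 2.2 for *REB1*, 2.03 for *SFH1*, 2.03 for *SUN4*, 1.77 for *KIP1*, 1.76 for *SHM2*, 1.69 for *RAX2*, 1.68 for *IXR1* and 1.55 for *TOR1*. It was -3.76 for *FIT2* and -3.38 for *KAR9*. *SHM2*, for a serine hydroxymethyltransferase, had 754, 595 and 674 counts at the 3′ end and 206, 215 and 177 at the 5′ end in the Puf5 IP, and 394, 243 and 266 against 395, 234 and 283 in the Ccr4 IP, with a whole-length log2 ratio of 0.30 that did not pass (adjusted p = 0.16). *DHH1*, *SUN4* and *KAR9* passed in all 6 fits that left out a library, and *SHM2* in 5 of them. *FIT2* passed in 4, *RAX2* in 3, *REB1* in 2, *SFH1*, *IXR1* and *TOR1* in 1 each, and *KIP1* in 0.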

How the results depend on the processing

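The scaling decided how many RNAs were called. The RNAs higher in the Puf5 IP and in the Ccr4 IP, and the median log2 ratio of mRNAs, were 64, 807 and -0.56 with library totals, 213, 133 and -0.020 with TMM factors, 107, 324 and -0.29 with mRNA totals, 146, 216 and -0.18 with totals without rRNA, and 219, 145 and -0.029 with DESeq2 and its size factors. Without a cutoff on the ratio 104 RNAs were higher in the Puf5 IP, and at 4-fold 8 and 81. Leaving out a library gave 52 to 73 RNAs higher in the Puf5 IP and 427 to 964 higher in the Ccr4 IP, with 427 without the second Puf5 IP library and 491 without the first Ccr4 IP library. The median of mRNAs then ran from -0.63 to -0.46. With TMM factors the left-out libraries gave 183 to 234 and 96 to 144. As a difference of Puf5 IP minus Ccr4 IP, the mRNA share was -0.63 percentage points of all reads and 6.82 of reads without rRNA. Of 83 named mRNAs, 32 were no longer called with TMM factors. *DHH1* was called with TMM factors and with DESeq2 and its size factors, but not with library totals. For the segments, TMM factors per segment gave 7 mRNAs towards the 3′ end and 2 towards the 5′ end, without *SFH1* and *KIP1* (adjusted p = 0.070 and 0.090). The median log2 difference between the segments over tested mRNAs was 0.19 with library totals and 0.018 with these factors. A mean of at least 20 counts gave 14 mRNAs towards the 3′ end and 1 towards the 5′ end, the middle against the 3′ segment 1 and 1, and left-out libraries 2 to 10 and 1 to 3. No pairing of the libraries by replicate number was seen. Deviations of same-numbered libraries correlated at 0.026, 0.011 and 0.0059, and those of the other pairs at -0.034 to 0.0225. With 3 libraries per IP these values cannot exclude a pairing. A replicate block gave 67 and 839 calls. It ended the calls of *QCR6*, *NOP1*, *RPL39* and *GAT1*, with log2 ratios of -0.995, 0.987 and 0.987 for the first 3, and of no other of the 83 named mRNAs. For the segments, a replicate block of the segment difference, chosen after seeing the data, gave 9 and 2 mRNAs, without *SFH1* and *KIP1* (adjusted p = 0.059 each). The planned share of called mRNAs with a Puf motif was not run. Low counts limit ratios such as that of *XBP1*.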
